A study of Danio rerio with 30 samples.

Results

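The genes described here encode the protein components of the cytosolic ribosome of zebrafish, 73 genes of the 8793 to which the array annotation gives a single symbol. They were chosen by symbol alone, as rpl, rplp or rps followed by a digit, leaving out the kinases whose symbols begin with rps6k, and each gene was read from its probe set with the highest mean over all arrays. By symbol, 45 belong to the large and 28 to the small ribosomal subunit. The symbol rule also caught rps19bp1, which in mammals encodes a protein that binds RPS19, and rpl7l1, a paralogue of rpl7 known in mammals from ribosome assembly, and neither is a structural protein of the mature cytosolic ribosome. Both were kept because the rule is by symbol. The gene rpl32 was left out because its probe set also carries another symbol.

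Ribosomal proteins fold around ribosomal RNA into a small subunit, which reads the messenger RNA, and a large subunit, which forms the peptide bond. They are assembled in nearly equal numbers, and in vertebrates their messenger RNAs share a tract at the start of the transcript through which the mTOR kinase controls their translation, so that much of their regulation occurs after transcription. Unassembled RPL5 and RPL11 bind the p53 inhibitor MDM2 in mammals. In the nose, sensory neurons are replaced throughout life by dividing basal cells.

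The samples were 30 arrays, 3 in each of 10 groups of adult AB strain zebrafish aged 1 year. A control group received neither agent. Chlorpyrifos (CPF, an organophosphate insecticide) was given at 0.1, 0.25 or 0.6, copper (Cu) at 0.1, 0.25 or 0.6, and 3 mixtures held Cu 0.25 with CPF 0.1, 0.25 or 0.6. No source used here gives the concentration unit or the length of exposure. On tissue the labels do not match, as 1 field names the olfactory rosettes and another adds bulbs and telencephalons. Nothing says whether fish were pooled or arrays independent, so every p-value reflects array-to-array spread, which may be technical. Values are log2 expression levels, and a change is a difference of log2 levels. Over all arrays the neuronal markers snap25a and elavl3 ran from 13.00 to 13.72 and from 9.77 to 10.58. Among genes of olfactory sensory neurons, ompb, the olfactory marker protein, ran from 3.56 to 6.69 and gng13b from 9.64 to 11.41. These levels come from different probe sets and do not rank the transcripts. Array medians lay between 5.53 and 5.63.

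All 73 genes passed the filter on low values (above 4 in at least 3 arrays), and most gave signals near the top of the measured range. The mean of 66 of them exceeded 12, and 61 stood above the 99th percentile of all probe sets. The 7 others were rps26, rpl5a, rps27.2, rpl22l1, rps27l, rpl7l1 and rps19bp1, the last with a mean of 6.38. In the zebrafish gene table of RefSeq the 73 genes were spread over 24 chromosomes, and a single pair of neighbours, rplp2 and rps26l, was among them. Signal depends on the probes as well as on the transcript, so these ranks describe the signal and not which transcript is more abundant. Conditions were compared within a gene or a subunit.

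The signals varied little from array to array. The SD of a member over the 30 arrays had a median of 0.0962, against 0.206 for all 10531 probe sets tested, and 2.37% of those had a smaller SD than the median member. Among probe sets with means above 12, the 142 others had a median SD of 0.150 and the 66 members 0.0953. The steadiest was rpl35, a large subunit protein at the exit of the peptide tunnel, with an SD of 0.0595 and values from 13.00 to 13.23. The next were rpl36, rps21, rpl13a and rpl7a, with SDs of 0.0700 to 0.0756. The most variable were rps27l (0.262), a paralogue of rps27 known as a p53 target in mammals, rpl7l1 (0.227), rpl22l1 (0.189), a paralogue of rpl22, rps27.2 (0.188) and rpl5b (0.130).

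**Figure D1:**
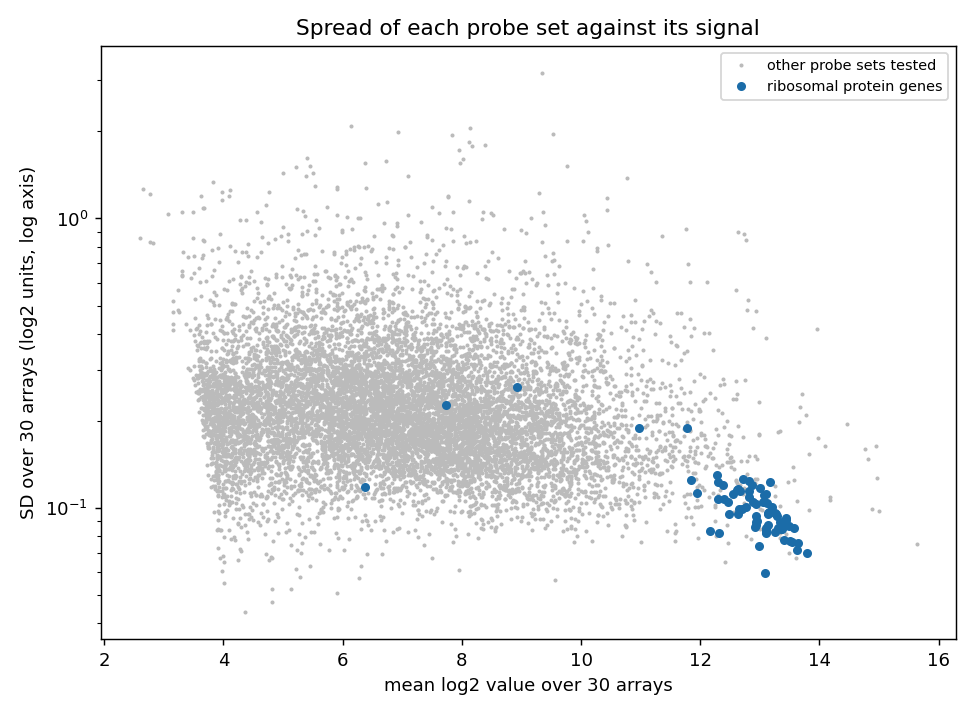
Each point is a probe set, with its mean log2 value over 30 arrays on the horizontal axis and its SD over the same arrays on a logarithmic vertical axis. Ribosomal protein genes (blue) crowd the lower right corner, with 66 of 73 above a mean of 12, and rps27l, rpl7l1 and rpl22l1 lie apart from that crowd.

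Both subunits moved together. The mean over large subunit genes had an SD of 0.0779 across the 30 arrays and the mean over small subunit genes 0.0759, but the difference between them had an SD of only 0.0194. That difference ran from 0.202 to 0.280 over single arrays and from 0.220 to 0.249 over group means. It was 0.223 ± 0.026 (SD, n = 3) in control and 0.249 ± 0.022 with Cu 0.25, and the control arrays (0.214, 0.202 and 0.252) overlapped those with Cu 0.25 (0.225, 0.254 and 0.268). With Cu 0.1 it was 0.223 ± 0.017, with Cu 0.6 it was 0.233 ± 0.002, and with CPF 0.1 it was 0.248 ± 0.036. The small subunit mean includes rps19bp1 and the large subunit mean rpl7l1, so the size of the difference depends on both. The pooled SD of the difference within groups was 0.0203, against 0.0665 for the large and 0.0689 for the small subunit mean.

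**Figure D2:**
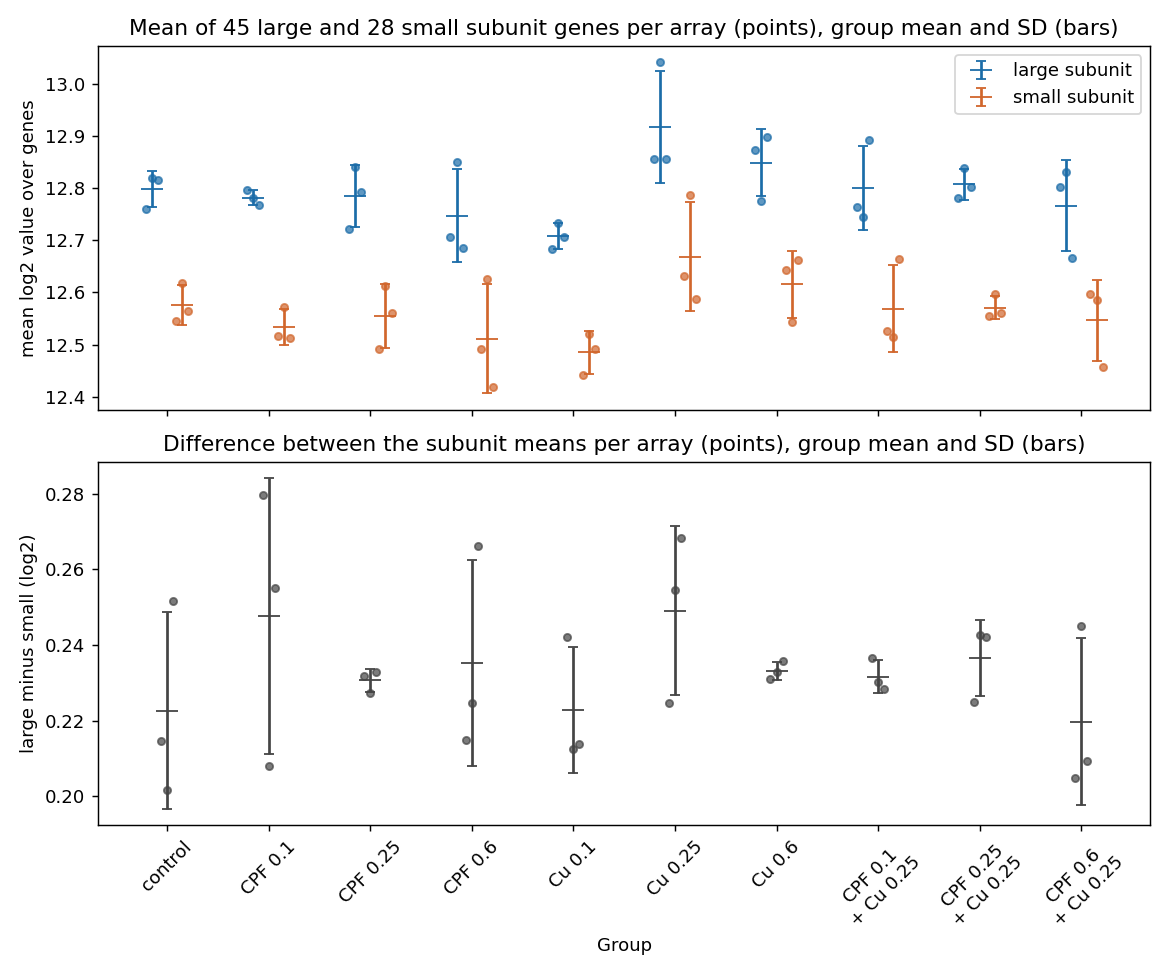
The upper panel shows the mean log2 value of the 45 large (blue) and 28 small (orange) subunit genes on each array, by group, and the lower panel their difference, with group means and SD as bars (n = 3). Large and small subunit means follow the same course over the groups, from 12.71 and 12.48 with Cu 0.1 to 12.92 and 12.67 with Cu 0.25, while the difference stays between 0.202 and 0.280.

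No single ribosomal protein gene passed the test in any comparison. Each probe set was fitted with limma over all 30 arrays, with a term for the 3 batches read from the sample titles, and a gene passed at a Benjamini-Hochberg adjusted p under 0.05 over all 10531 probe sets. In each of the 14 comparisons 0 of 73 members passed. The share of all probe sets that passed was 0% for CPF 0.1, CPF 0.25 and Cu 0.1, 0.0095% for CPF 0.6, 0.351% for Cu 0.25 and 1.62% for Cu 0.6. It was 0.171%, 0.18% and 0.095% for the mixtures with CPF 0.1, 0.25 and 0.6, each against control, and 0.152% for Cu 0.6 against Cu 0.1. It was 4.35% for Cu 0.25 averaged over the 4 CPF levels, 1.32% for any difference among the groups, 0% for the CPF by Cu interaction and 0% for the title batch. With such low shares 0 of 73 is near the background, save for averaged Cu 0.25, where it is below the 4.35% of all probe sets. The 9 comparisons with control share the same 3 control arrays and so are not independent of each other.

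The precision of these arrays bounds, for each gene by itself, how large a missed change in signal between arrays could be. The spread between arrays may be technical, so the bounds need not hold for differences between fish. The intervals are not adjusted for the number of genes, and whether the signal follows the transcript at such high levels was not tested. The median SE of a member was 0.0860 to 0.0886 in the comparisons with control, against 0.157 to 0.162 for all probe sets. In each of them the 95% interval of the change lay entirely within ±0.5 for 69 to 73 of the 73 members. The widest bounds ran from -0.57 to 0.75. In a mixed tissue, fewer cells of a type and less RNA per cell cannot be told apart.

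**Figure D3:**
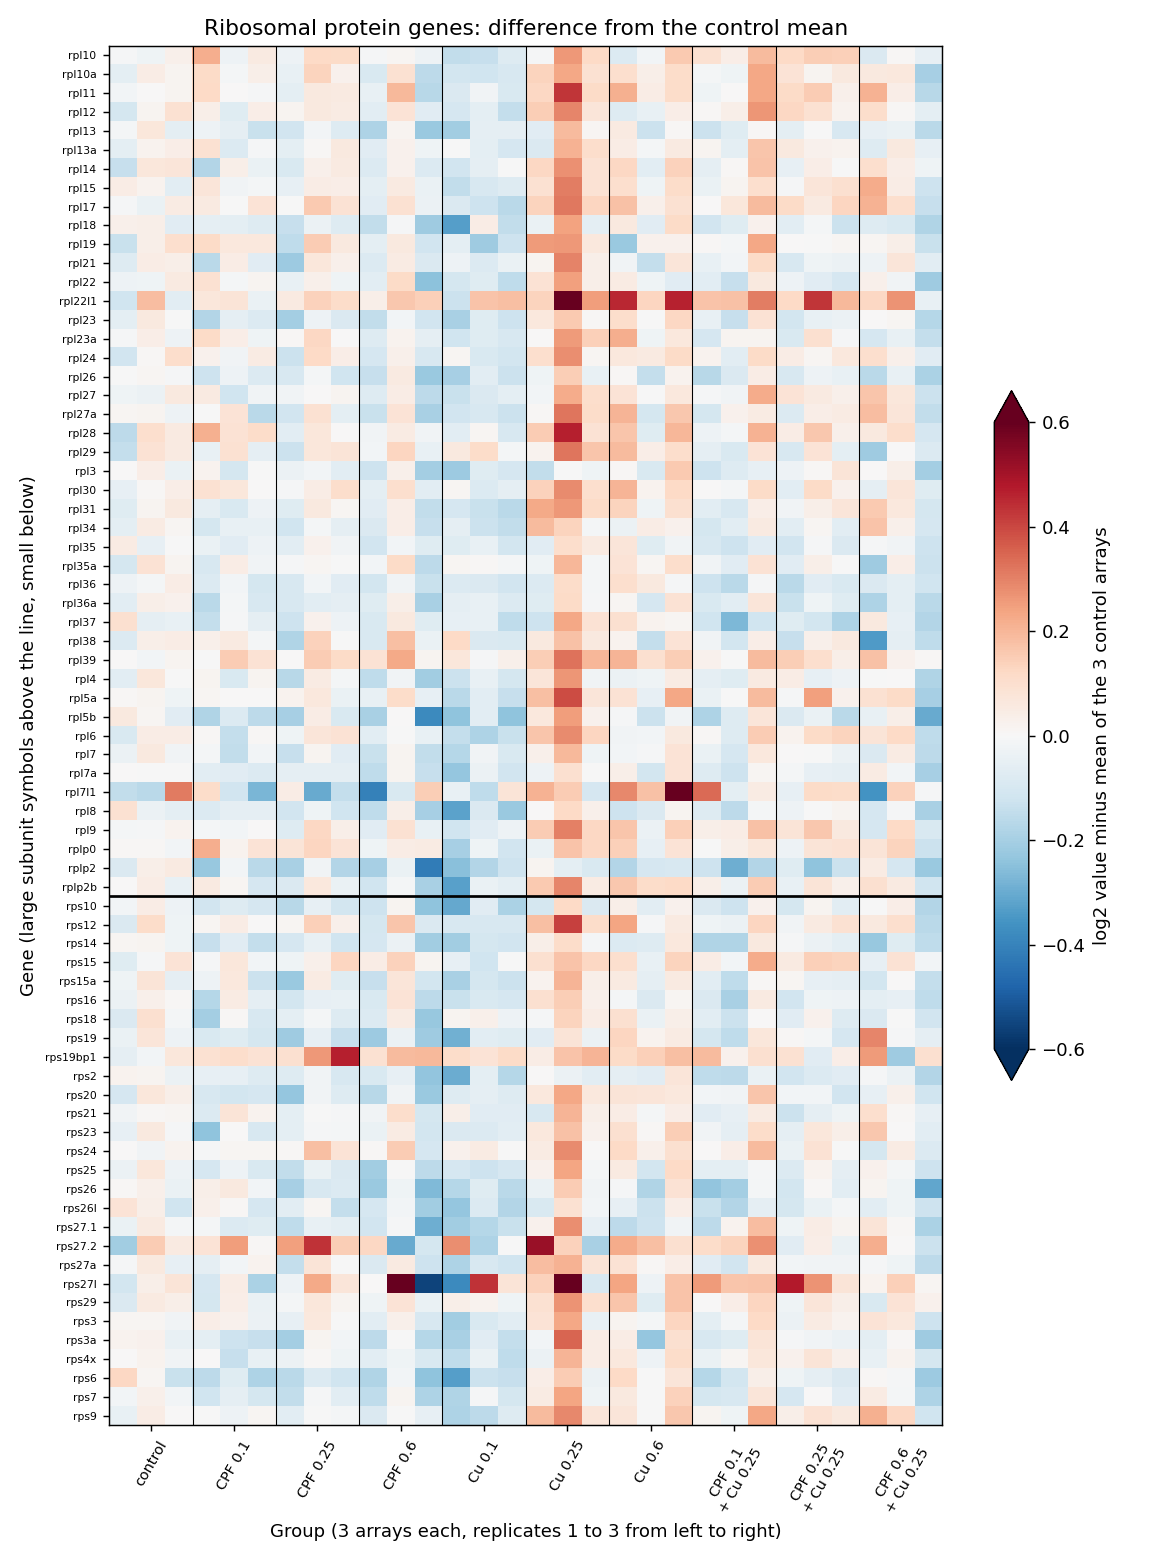
Each row is a gene and each column an array, coloured by its log2 value minus the mean of the 3 control arrays, with values past ±0.6 shown in the end colours. Cu 0.1 is pale blue in most rows, Cu 0.25 replicate 2 is red in nearly all, and rpl22l1, rpl7l1, rps27.2 and rps27l show the strongest single cells.

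Cu 0.1 had the lowest levels of both subunits. Of 73 members 68 had a change below 0, 43 large and 25 small (48.6% of all probe sets were below 0), and the medians were -0.11 for large and -0.13 for small subunit genes, against 0.01 over all probe sets. Among related lists the median was -0.12 for elongation factors, -0.05 for ribosome biogenesis, -0.03 for mitochondrial ribosomal proteins and 0.03 for initiation factors. All 3 Cu 0.1 arrays lay below all 3 control arrays for 37 members, 21 large and 16 small, compared with 7.92% of all probe sets, and above them for 1 member (9.44%). With quantile normalization the number below was 26 (7% of all probe sets), and with each array centred on its median 19 (5.2%). The members moved together from array to array, their mean with an SD of 0.0765 over the 30 arrays. Counts of members, here and in the comparisons below, are therefore not counts of independent genes. With limma, 3 members had an unadjusted p under 0.05 and were lower, a count near the share of 4.02% over all probe sets. They were rpl8, rps10 and rps2, and none of them passed after adjustment. With array weights, whose estimate did not fully converge, 7 members passed and were lower, these 3 among them (limma adjusted p = 0.0266, 0.0242 and 0.0399), but so did 13.9% of all probe sets in either direction.

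The largest of these differences was that of rpl8, a large subunit protein near the peptidyl transferase centre. It was at 13.29, 13.17 and 13.14 in control and at 12.88, 13.11 and 12.98 with Cu 0.1. Every Cu 0.1 array was below every control array, the nearest being 13.11 and 13.14, and the change was -0.21 ± 0.088 (SE, limma adjusted p = 0.406). For rps2, a small subunit protein of the messenger RNA entry channel, control read 13.59, 13.59 and 13.54 and Cu 0.1 read 13.27, 13.51 and 13.40, a change of -0.17 ± 0.082 (limma adjusted p = 0.459). Here too Cu 0.1 replicate 1 was the lowest of the 6 arrays. The small subunit gene rps10 was at -0.21 ± 0.091, and rps6, whose protein is phosphorylated by S6 kinase downstream of mTOR, at -0.19 ± 0.095 (limma adjusted p = 0.428 and 0.479). The 5 members not below 0 included rps19bp1 (0.12), rps27.2 (0.06) and rpl39 (0.03).

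Within title batches, the Cu 0.1 arrays had a large subunit mean of -0.09 and -0.12 against the control array of title batch 1 and 2, and a small subunit mean of -0.10 and -0.10. Several marker lists differed in level between Cu 0.1 and control. Over 9 measured markers of olfactory sensory neurons the mean level was 6.57 to 6.73, below the 7.07 to 7.46 of control. Of these 9, 0 passed the limma threshold (0% of all probe sets), and 3 did at Cu 0.25 (0.351%). Over 9 liver markers the mean level was 5.52 to 5.93 against 5.96 to 6.92. Over 17 epithelium markers it was 10.16 to 10.40 against 10.38 to 10.73, which overlapped. The leukocyte, glia and erythrocyte lists also overlapped control. Over 6 exocrine pancreas markers the mean level was 3.51 to 3.86 against 4.05 to 4.44. Over 11 brain neuron markers it was 11.33 to 11.50 against 11.09 to 11.23. The part of these differences in the ribosomal protein levels was not tested.

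Cu 0.25 had the highest levels. Of 73 members 67 had a change above 0, 43 large and 24 small (56.6% of all probe sets), with medians of 0.12 and 0.09 against 0.03 over all probe sets. Among related lists the median was 0.14 for initiation factors, 0.12 for mitochondrial ribosomal proteins, 0.07 for ribosome biogenesis and 0.03 for elongation factors. All 3 arrays lay above all control arrays for 19 members, 13 large and 6 small (6.98% of all probe sets), and for 0 did they lie below (4.96%). The number above was 5 with quantile normalization (7.45% of all probe sets) and 22 with median centring (7.79%). With limma, 10 members had an unadjusted p under 0.05 and were higher, 8 large and 2 small (6.11% of all probe sets), and 0 passed after adjustment. They were rpl22l1, rpl39, rpl31, rps12, rpl9, rpl28, rpl30, rpl6, rpl17 and rps29.

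The large subunit gene rpl31 was at 12.31, 12.40 and 12.45 in control and at 12.62, 12.65 and 12.50 with Cu 0.25. The groups did not overlap, and the change was 0.20 ± 0.082 (SE, limma adjusted p = 0.349). For rpl39, a small protein of the exit tunnel, the values were 12.84, 12.82 and 12.86 in control and 12.99, 13.17 and 13.04 with Cu 0.25, a change of 0.23 ± 0.083 (limma adjusted p = 0.289). The small subunit gene rps12 changed by 0.23 ± 0.096 and rpl28 by 0.23 ± 0.100 (limma adjusted p = 0.349 and 0.377). At the other end were rpl3 (-0.06), rplp2 (-0.04), a protein of the acidic stalk that recruits elongation factors, and rps2 (-0.03). A further rpl3 probe set that passed the filter was at 0.05. The MDM2-binding genes rpl11 and rpl5a were at 0.22 and 0.21 (limma adjusted p = 0.462 and 0.457) and rpl5b at 0.11 (0.789). The paralogues rpl5a and rpl5b, rplp2 and rplp2b, rps26 and rps26l, and the 3 rps27 genes may share probes, and their separate values are uncertain.

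A single array carried much of the Cu 0.25 difference. On Cu 0.25 replicate 2 all 73 members stood above their own mean over the 30 arrays, the only array where this was so, and on replicate 1 and 3 the number was 54 and 63, against 29, 53 and 43 in control. Without that array the medians were 0.06 for large and 0.03 for small subunit genes, in place of 0.12 and 0.09, and 0 members passed. Against the control array of the same title batch the large subunit mean was 0.04, 0.22 and 0.10 higher in title batch 1, 2 and 3, and the small subunit mean differed by -0.03, 0.22 and 0.09, where title batch 2 holds replicate 2. The same array had the highest mean of its group over 22 cell cycle and replication genes, 6.50 against 5.67 to 5.85 in control, and over 10 leukocyte markers, 9.81 against 9.16 to 9.20. Of all 30 arrays it had the highest mean over 17 epithelium markers, 10.95 against 10.38 to 10.73 in control, and the lowest over 11 brain neuron markers, 11.04 against 11.09 to 11.23. No cell cycle, leukocyte, epithelium or brain neuron marker passed for Cu 0.25 against control in limma, and their part in the ribosomal protein levels was not tested.

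Cu 0.6 lay between the other copper groups. Its medians were 0.04 for large and 0.05 for small subunit genes, and that over all probe sets was 0.05. All 3 arrays lay above control for 5 members (11.4% of all probe sets) and below for 1 (6.44%). With limma, 2 members were higher at an unadjusted p under 0.05 (10.1% of all probe sets), rpl22l1 and rpl7l1, and 0 passed after adjustment. Markers of olfactory sensory neurons were lowest in this group, at 5.88 to 5.97, with 4 of 9 past the threshold (1.62% of all probe sets). Their part in the ribosomal protein levels was not tested.

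In the direct comparison of Cu 0.6 with Cu 0.1, all 73 members had a change above 0 (52.9% of all probe sets), with medians of 0.14 for both subunits against 0.01 over all probe sets. Related lists were higher too, with medians of 0.22 for mitochondrial ribosomal proteins, 0.19 for ribosome biogenesis and 0.19 for initiation factors. The medians were 0.14 for elongation factors, 0.08 for RNA polymerases I and III and 0.04 for mTOR signalling genes. In limma 16 members were higher at an unadjusted p under 0.05, 11 large and 5 small (8.17% of all probe sets), and 0 passed after adjustment. The smallest adjusted p among members was that of rpl7l1 (0.45 ± 0.163, SE, limma adjusted p = 0.275), followed by rplp2b, rpl23a, rpl22l1 and rpl23. rps6 was at 0.24 ± 0.095 (limma adjusted p = 0.318) and rplp0, the stalk protein often used as a reference gene, at 0.20 ± 0.086 (limma adjusted p = 0.375). With array weights 6 members passed, among them rpl17, rpl31 and rpl23a (limma adjusted p = 0.0309, 0.0301 and 0.0331), and 6.73% of all probe sets did. Epithelium markers had mean levels of 10.42 to 10.71 with Cu 0.6 and 10.16 to 10.40 with Cu 0.1, which did not overlap, and 0 of 17 passed. Olfactory sensory neuron markers were at 5.88 to 5.97 and 6.57 to 6.73. Of these 9 markers 1 passed the threshold, ompb (0.152% of all probe sets). The list of cell cycle genes had a median change of 0.39 with 0 of 22 past the threshold, and the part of these lists in the ribosomal protein levels was not tested.

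**Figure D4:**
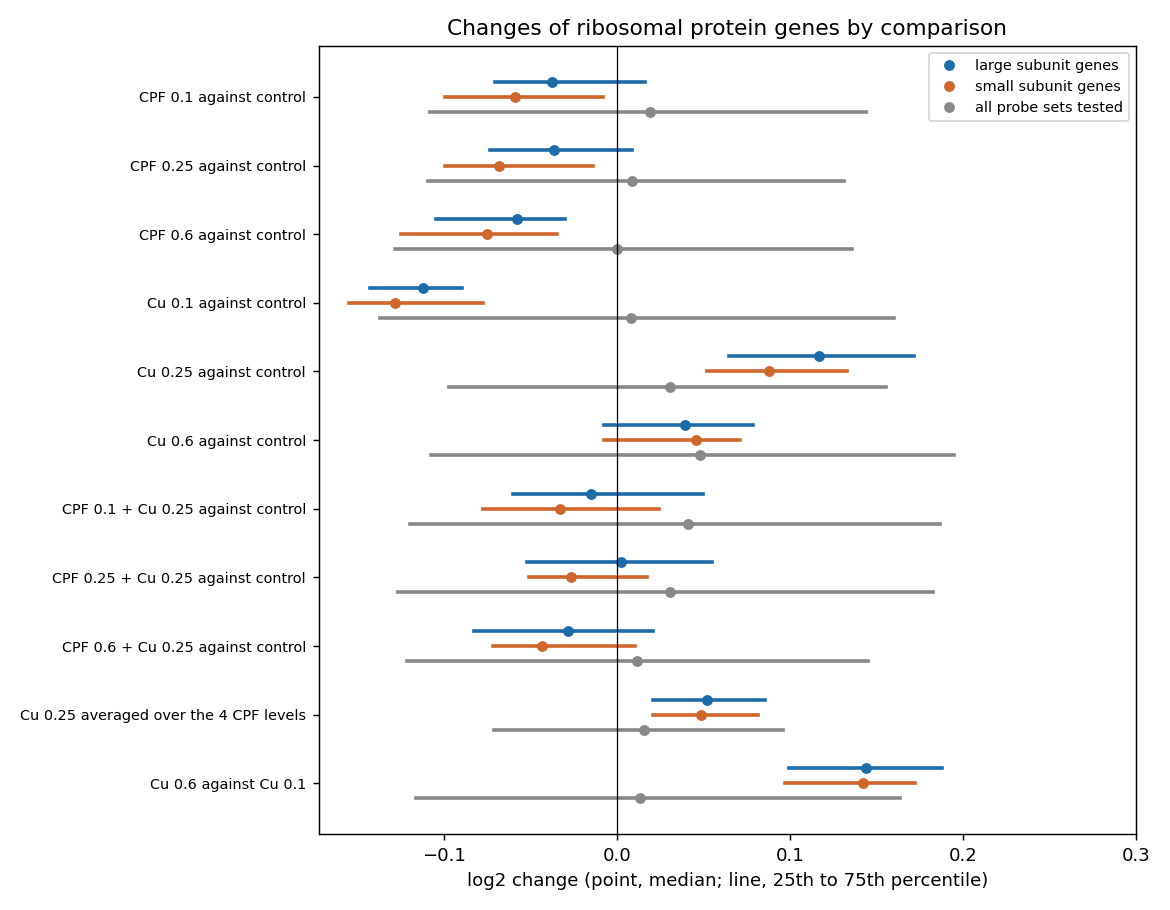
Points are the median log2 change of large subunit genes (blue), small subunit genes (orange) and all probe sets tested (grey) in each comparison, and lines run from the lower to the upper quartile. Both subunits lie left of zero for Cu 0.1 and right of it for Cu 0.25 and for Cu 0.6 against Cu 0.1, within a span of -0.13 to 0.14 for the medians.

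CPF alone gave small differences. The medians of large and small subunit genes were -0.04 and -0.06 at CPF 0.1, -0.04 and -0.07 at CPF 0.25, and -0.06 and -0.08 at CPF 0.6, against 0.02, 0.01 and 0.00 over all probe sets. At CPF 0.6, 65 of 73 members had a change below 0 (50.1% of all probe sets), but the arrays overlapped control for most, since 3 lay wholly below it (5.31%) and 1 wholly above (7.84%). With quantile normalization the number below was 17 (6.32% of all probe sets), and with median centring 2 (3.78%). The 3 CPF 0.6 arrays spread widely, with 1, 64 and 3 members above their own mean on replicate 1, 2 and 3. Without replicate 2 the small subunit median was -0.16 in place of -0.08. That array also had the highest mean of the 3 over leukocyte markers (9.82 against 9.10 and 8.97), epithelium markers (10.81 against 10.45 and 10.24), liver markers (7.10 against 6.20 and 5.72) and 6 exocrine pancreas markers (5.25 against 3.64 and 3.61), and the part of these in its ribosomal protein levels was not tested. At CPF 0.1 and at CPF 0.25, 9 members lay wholly below control (4.43% and 4.07% of all probe sets) and 2 wholly above (8% and 6.81%). The numbers below were 13 and 13 with quantile normalization (5.59% and 5.14% of all probe sets) but 4 and 3 with median centring (3.76% and 3.58%). At CPF 0.25 liver markers had mean levels of 6.61 to 7.68, against 5.96 to 6.92 in control. Exocrine pancreas markers were at 3.77 to 6.90 there, against 4.05 to 4.44 in control. The part of both lists in the CPF 0.25 values was not tested. The lowest member at CPF 0.6 was rplp2, at -0.19 ± 0.099 (SE, limma adjusted p = 0.630). With limma, the 1 member at an unadjusted p under 0.05 was rps19bp1 at CPF 0.25 (3.64% of all probe sets were higher at that level), at 0.29 ± 0.106 with an adjusted p of 0.729, and 0 were at CPF 0.1 and CPF 0.6. Cell cycle and replication genes had mean levels of 5.57 to 5.66, 5.51 to 5.67 and 5.42 to 5.56 at CPF 0.1, 0.25 and 0.6, against 5.67 to 5.85 in control, and their part was not tested.

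The mixtures stayed close to control. The medians of large and small subunit genes were -0.02 and -0.03 with CPF 0.1, 0.00 and -0.03 with CPF 0.25, and -0.03 and -0.04 with CPF 0.6, each with Cu 0.25. Leaving out single arrays turned the sign of the large subunit median in all 3, for example between -0.06 and 0.03 with CPF 0.1. Wholly above control were 3, 7 and 0 members (14%, 11.5% and 7.35% of all probe sets), and wholly below were 5, 7 and 6 (9.65%, 9.06% and 5.8%). These counts moved with scaling, the numbers above to 3, 3 and 0 with quantile normalization (11.9%, 10.9% and 8.33% of all probe sets) and 7, 10 and 1 with median centring (16.5%, 13.1% and 7.94%). The numbers below became 4, 9 and 3 with quantile normalization (9.03%, 8.64% and 5.8%) and 4, 3 and 3 with median centring (7.89%, 7.97% and 5.48%). In limma 0 members had an unadjusted p under 0.05 in any of the 3. On CPF 0.6 + Cu 0.25 replicate 3 no member stood above its own mean, while 45 and 57 did on replicate 1 and 2.

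Adding Cu 0.25 was compared at each CPF level. Without CPF the large subunit mean was 0.119 higher with copper, 12.86 to 13.04 against 12.76 to 12.82, with no overlap. With CPF 0.1, 0.25 and 0.6 the difference was 0.0187, 0.0220 and 0.0195, and the arrays overlapped in all 3. For small subunit genes the differences were 0.0927, 0.0348, 0.0160 and 0.0350, and the arrays overlapped in all 4, without CPF at 12.59 to 12.79 against 12.54 to 12.62. The interaction test in limma called 0 members, with 0 at an unadjusted p under 0.05 (3.67% of all probe sets), so a difference between these copper effects was not detected.

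Averaged over the 4 CPF levels, Cu 0.25 gave medians of 0.05 for large and 0.05 for small subunit genes, against 0.02 over all probe sets, and 63 of 73 members were above 0 (55.6%). In limma 8 members were higher at an unadjusted p under 0.05, 5 large and 3 small, and 0 passed after adjustment. That count is near the share of 10.7% over all probe sets. Besides rpl22l1 the 8 members were rps20, rps9, rpl9, rps29, rpl14, rpl6 and rpl31. The small subunit gene rps9 was at 0.12 ± 0.046 (SE, limma adjusted p = 0.163) and rps20 at 0.11 ± 0.043 (0.159). The stalk genes rplp0 and rplp2 were at 0.00 and -0.01, rps27a, which encodes a ubiquitin fused to a small subunit protein, at 0.03, and rps14 and rps3 at 0.02 and 0.04.

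The member nearest to the threshold anywhere was rpl22l1. In control it was at 10.69, 11.00 and 10.75, with Cu 0.1 at 10.68, 10.98 and 10.99, with Cu 0.25 at 10.95, 11.60 and 11.06, and with Cu 0.6 at 11.26, 10.94 and 11.27. The CPF groups lay at 10.77 to 10.97 and the mixtures at 10.77 to 11.24. The values with Cu 0.25 and Cu 0.6 overlapped control only through control replicate 2. Over the 12 arrays with Cu 0.25 the lowest, median and highest values were 10.77, 10.99 and 11.60, and over the 12 matching arrays without copper 10.69, 10.88 and 11.00, so that 11 of 12 stood above the median without copper. The averaged change was 0.22 ± 0.065 (SE, limma adjusted p = 0.0612), which misses the threshold. The means of the 12 and 12 arrays, taken without the batch term, differed by 0.18.

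The rpl22l1 difference was 0.13, 0.29 and 0.25 within title batch 1, 2 and 3, the last from 3 arrays with Cu 0.25 and 1 without copper. Its adjusted p was under the threshold in some other settings, at 0.0491 with the filter at 6, 0.0485 with a trended and robust prior and 0.0308 with array weights, and it ran from 0.0230 to 0.153 when single arrays were left out. The call came with leaving out Cu 0.25 replicate 3, CPF 0.25 + Cu 0.25 replicate 3 or CPF 0.6 + Cu 0.25 replicate 3. Against control it changed by 0.39 ± 0.127 with Cu 0.25 (limma adjusted p = 0.220) and by 0.34 ± 0.129 with Cu 0.6 (0.195). Without Cu 0.25 replicate 2 the first of these was 0.21 (adjusted p = 0.645). Its paralogue rpl22 differed by -0.003 between the same 12 and 12 arrays, with 5 of 12 above the median without copper. The test of any difference among the 10 groups also put rpl22l1 first among members (limma adjusted p = 0.351, 1 member at an unadjusted p under 0.05 and 12.6% of all probe sets).

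Among members only rps27l and rpl7l1 varied more over the 30 arrays than rpl22l1. rpl7l1 was at 7.57, 7.56 and 8.03 in control and at 8.01, 7.90 and 8.38 with Cu 0.6, overlapping through control replicate 3, and changed by 0.34 ± 0.161 (limma adjusted p = 0.326). Over the 12 arrays with Cu 0.25 and the 12 without copper it differed by 0.13 and its partner rpl7 by 0.04. rps27l was at 8.82, 9.54 and 8.26 on the 3 CPF 0.6 arrays, which spanned the whole range of the gene. The last 2 of these were the highest and the lowest of its 30 values.

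**Figure D5:**
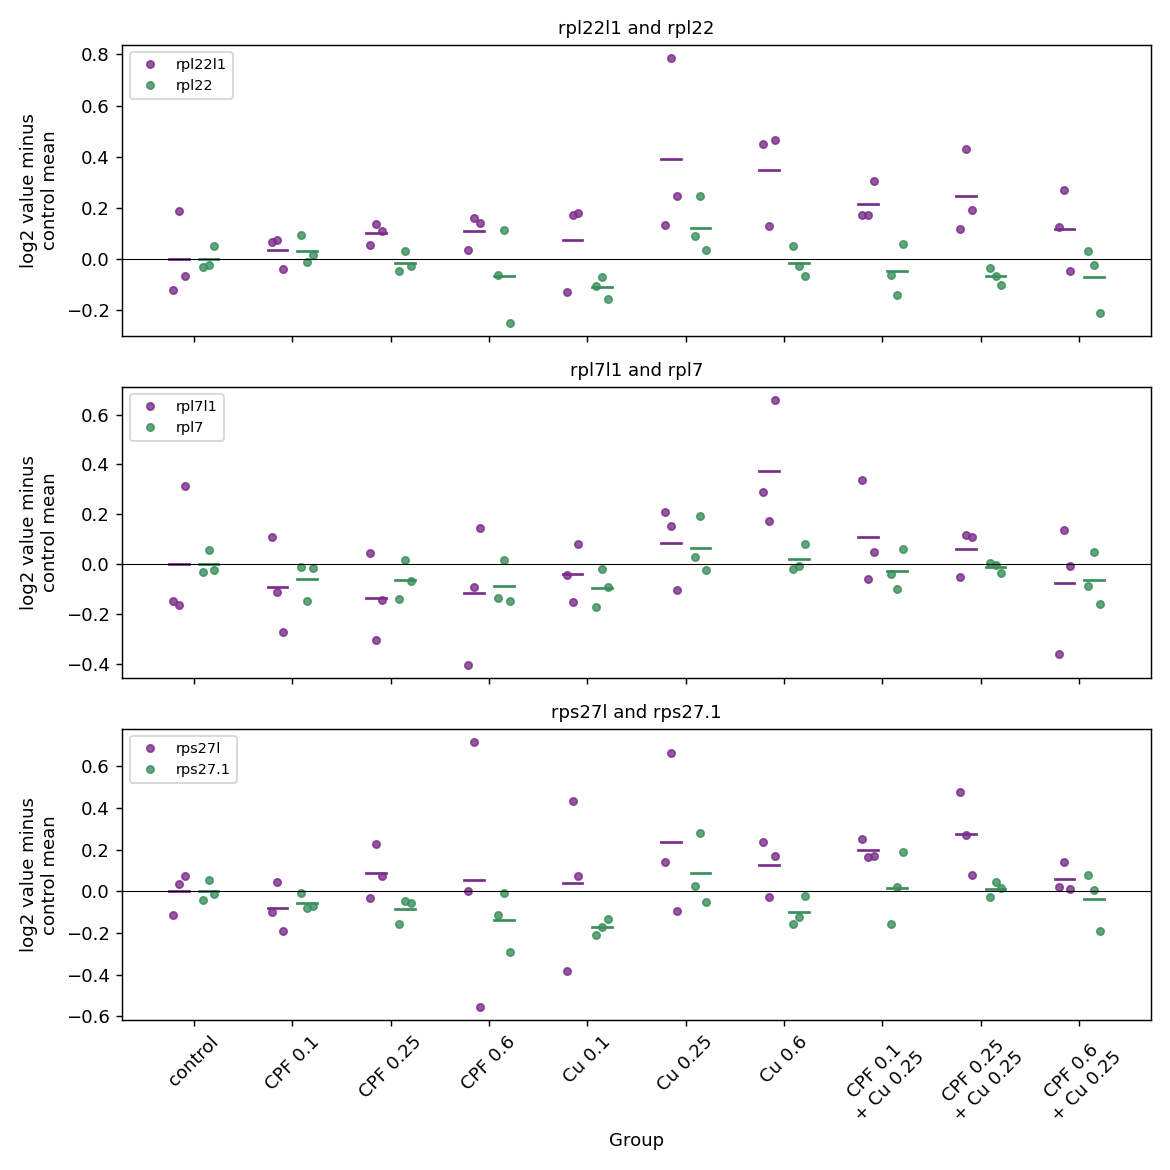
Points are single arrays and short bars group means of the log2 value minus the control mean, for rpl22l1, rpl7l1 and rps27l (purple) beside rpl22, rpl7 and rps27.1 (green). rpl22l1 lies above its control mean on all Cu 0.25 and Cu 0.6 arrays, and rps27l spreads from 8.26 to 9.54 within CPF 0.6 before the control mean is subtracted.

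The title batches differed little in most of these genes. In title batch 3 against 1 the lowest member was rpl22l1, at -0.20 ± 0.094 (SE), and the highest rps27.2, at 0.11 ± 0.114. For rpl22l1 the limma F-test of the batch terms gave an adjusted p of 0.714. In limma 0 members passed and 3 had an unadjusted p under 0.05 (7.21% of all probe sets), which were rps29, rpl29 and rpl38. Large subunit means were 12.78 ± 0.072, 12.81 ± 0.094 and 12.79 ± 0.037 (SD over 12, 13 and 5 arrays) in title batch 1, 2 and 3.

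Other genes of protein synthesis were counted beside the ribosomal proteins for averaged Cu 0.25, where 2.17% of all probe sets rose and 2.17% fell. Of 73 measured ribosome biogenesis genes 2 rose in limma, near that share, nop16 by 0.35 and pwp1 by 0.29, both nucleolar assembly factors, with a list median of 0.09 against 0.02 over all probe sets. At Cu 0.6, where 0.684% of all probe sets rose, 1 of the 73 passed, as fbl (fibrillarin, the methyltransferase of ribosomal RNA) rose by 0.65 ± 0.141 (SE, limma adjusted p = 0.0194), and it was 0.83 higher at Cu 0.6 than at Cu 0.1 (limma adjusted p = 0.0199). Of 43 initiation factors 2 rose, eif5 by 0.17 and eif5b by 0.22, and of 12 elongation factors 0 passed. Of 56 measured genes of mitochondrial ribosomal proteins 3 rose, mrpl20 by 0.32, mrpl30 by 0.22 and mrps24 by 0.40. Their list median was 0.12, and at Cu 0.6, where mrpl52 rose by 0.80, it was 0.19. Of the 43 initiation factors 2 also rose at Cu 0.6 (0.684% of all probe sets). Their list median there was 0.20, and that of the ribosome biogenesis genes 0.14, against 0.05 over all probe sets. Of 4 further cytosolic ribosome genes outside the symbol rule 0 passed, with medians of -0.14 at Cu 0.1 and 0.13 at Cu 0.25. In the same averaged comparison 8 of 9 olfactory sensory neuron markers and 2 of 9 liver markers fell. Among the other lists 6 of 22 cell cycle genes, 2 of 10 leukocyte markers and 1 of 17 epithelium markers rose. No brain neuron, glia, erythrocyte or exocrine pancreas marker passed. These counts are to be read beside the same 2.17% in each direction. The part of these shifts in the ribosomal protein levels was not tested.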

How the data were processed

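The values analysed were log2 expression levels as deposited, made by the authors with GCRMA, per the submitters' processing notes, and no aligner or build applies. That the scale is log2 was read from the values, which reach 15.73. Of 15617 probe sets, 115 controls were left out, and 10531 with values above 4 in at least 3 arrays were tested. Probe sets were named from the platform annotation. No further scaling was applied. limma 3.58.1 (R 4.3.3) was fitted over all 30 arrays with group means and 3 title batches (12, 13 and 5 arrays), leaving 18 residual degrees of freedom. What the titles' batches stand for is not stated. Replicates were numbered in accession order. Benjamini-Hochberg values cover all 10531 probe sets. Alternatives changed the batch term, filter, scaling, prior, array weights, probe set rule and arrays included. No arrays were identical. The fit was tested on simulated data. The members, gene lists and comparisons were chosen with earlier results of these data known. Named genes were the 3 highest and 3 lowest changes per comparison, the smallest p-values, the extremes of SD and a fixed set of well-known members, of which the text gives part; rpl7, rpl39, rps10, rps20 and other members at an unadjusted p under 0.05 were named with their values known. Precision is limited by 3 arrays per group. Sequences are not used here.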

Additional observations from a re-analysis of the deposited data

How the results depend on the processing

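The count of ribosomal protein genes past the threshold was 0 in each comparison as reported. With array weights, whose estimate did not fully converge, it was 7 for Cu 0.1, 1 for averaged Cu 0.25, 6 for Cu 0.6 against Cu 0.1 and 8 for any difference, where 13.9%, 7.43%, 6.73% and 19.9% of all probe sets passed. For averaged Cu 0.25 it was also 1 with the filter at 6 and 1 with a trended and robust prior, in each case rpl22l1, and 0 to 1 when single arrays were left out. The counts of the other comparisons stayed at 0 in all settings run. The median of large subunit genes at CPF 0.25 was 0.036 without the 4 arrays with most liver or pancreas signal, which leaves that group 1 array, against -0.037 as reported. The median of small subunit genes at CPF 0.6 was -0.15 without those arrays, against -0.08, and ran from -0.16 (without CPF 0.6 replicate 2) to -0.045 when single arrays were left out.

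Counts of genes whose 3 arrays did not overlap control depended on scaling. With quantile normalization the number above control was 0 for CPF 0.1 (7.6% of all probe sets) and 5 for Cu 0.25 (7.45%). For CPF 0.25 + Cu 0.25 it was 3 (10.9%). The number below was 17 for CPF 0.6 (6.32%), 2 for Cu 0.6 (7.42%) and 3 for CPF 0.6 + Cu 0.25 (5.8%). With median centring the number above was 2 for CPF 0.6 (9.72% of all probe sets) and 2 for Cu 0.1 (12.7%). It was 7 for CPF 0.1 + Cu 0.25 (16.5%) and 1 for CPF 0.6 + Cu 0.25 (7.94%). The number below was 4 for CPF 0.1 (3.76%), 3 for CPF 0.25 (3.58%), 19 for Cu 0.1 (5.2%) and 0 for Cu 0.6 (6.62%). For CPF 0.25 + Cu 0.25 it was 3 (7.97%) and for CPF 0.6 + Cu 0.25 it was 3 (5.48%). When the probe sets of each gene were averaged, the number above was 1 for CPF 0.25 and 0 for Cu 0.1. Before averaging, 6.81% and 9.44% of all probe sets lay above control in these 2 groups. The cause was not tested. The median of both subunits stayed negative for Cu 0.1 and positive for Cu 0.25, Cu 0.6 and averaged Cu 0.25 in all settings run. The same scalings moved the median of all probe sets by at most 0.0387.

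No paired analysis was possible because the replicate numbers follow accession order and pair no samples. The title batch was not tested without title batch 3, without a batch term or with it as a random block. A recomputed median counted as unchanged if it shifted by less than the pooled SD of the subunit mean within groups. That SD was 0.0665 for large and 0.0689 for small subunit genes, larger than most of the medians themselves. Counts were unchanged if equal or of similar size, so the tally says little about how steady small values are. Under other settings, leaving out single arrays aside, 852 recomputed values were counted as unchanged, 26 moved and 12 gained the threshold. These 12 cover only members already at an unadjusted p under 0.05 in limma, and leave out the F-tests, so further members passed with array weights. Of these 12, 10 came with array weights and the rest were for rpl22l1. A small value counted as unchanged could still turn its sign. For example, the large subunit median with CPF 0.1 + Cu 0.25 was -0.015 as reported and ran from -0.046 to 0.013. With 3 arrays per group, a change well under the intervals given above would not be detected.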

Other observations

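Genes upstream and downstream of ribosome supply were counted from lists chosen with earlier results known. Over all probe sets 2.17% rose and 2.17% fell for averaged Cu 0.25, 0.684% rose and 0.94% fell at Cu 0.6, and 0.114% fell with CPF 0.1 + Cu 0.25, and lists this short pass such shares with a single gene. Of 18 measured genes of mTOR and S6 kinase signalling, ddit4, an inhibitor of mTOR induced by stress, fell by 1.02 for averaged Cu 0.25 (limma adjusted p = 0.0330), and mycn, a transcription factor that in mammals drives ribosome production, rose by 0.74 at Cu 0.6 (limma adjusted p = 0.0326). The list median was -0.02 for averaged Cu 0.25, against 0.02 over all probe sets. Of 13 measured p53 and ribosomal stress targets 3 fell for averaged Cu 0.25, gadd45ab by 0.39, gadd45ba by 0.54 and btg2 by 0.55, and the same 3 fell at Cu 0.6, by 0.78, 1.12 and 1.11. These genes also respond early to many stimuli. The median of the p53 list was 0.04 for averaged Cu 0.25, against 0.02 over all probe sets. At Cu 0.6 it was -0.16, against 0.05 over all probe sets. Of 16 measured subunits of RNA polymerases I and III, which make ribosomal RNA, polr1e fell by 0.83 with CPF 0.1 + Cu 0.25 (limma adjusted p = 0.0451) and 0 passed in the other comparisons with control.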
